A study of Homo sapiens with 18 samples.

Results

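The genes described here are 40 ribosome biogenesis and nucleolar genes, a list chosen by name, and all 40 were found among the 23621 genes of the expression table. All 40 also belonged to the 12771 genes that reached 1 FPKM in 3 or more libraries and were tested. FPKM, which counts fragments relative to transcript length and library size, is a length-corrected expression level. The data were RNA-seq values from 18 libraries of GIST-T1, a human cell line of a gastrointestinal stromal tumor, whose labels describe it as dependent on the receptor kinase KIT. The 6 groups of 3 libraries were cells given the solvent DMSO with no time stated, imatinib for 6 h, imatinib for 24 h, JQ1 for 6 h, JQ1 for 24 h, and imatinib together with JQ1 for 24 h. Both drugs were used at 500 nM. Imatinib inhibits KIT and a few other tyrosine kinases, and JQ1 displaces BET bromodomain proteins from acetylated chromatin. All groups are the same cell line with no other genetic change named in the labels, so the results concern a single tumor line. The comparisons ask how much each drug, each time and the pair of drugs changed the RNA of this machinery.

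Ribosomes are built in the nucleolus, where RNA polymerase I copies the ribosomal DNA into a long precursor RNA. Small nucleolar ribonucleoproteins (snoRNPs) methylate and pseudouridylate that precursor, and large assemblies of processing factors fold it, cleave it and attach ribosomal proteins to make the small and the large subunit. Transcription factors of the MYC family are well known activators of many of these genes, and growth factor receptor signaling is a known upstream input.

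The start regions of the genes were read first, because a known binding site of MYC with its partner MAX is the 6-base palindrome CACGTG. RefSeq windows of 300 bases, from 250 before to 50 after an annotated start (GRCh38.p14), were found for 33 of the 40 genes, and TCOF1, NOP58, NOLC1, RRP12, RRS1, BOP1 and RRP1B had no window. CACGTG stood in the windows of 15 of these 33 genes (45.5%), against 1137 of 9127 other tested genes (12.5%) and 8.77% of all genes with a window. Some genes have several windows, and counted by window the shares were 34.9% of 43 and 7.26% of 35116. The letters CCGGAAG, a core of many ETS factor sites, were searched on both strands and stood in 13 of the 33 genes (39.4%), in 22.3% of the other tested genes and in 12.2% of all genes with a window. A palindromic motif bound by the factor BANP stood in 0 of the 33 and in 1.07% of the other tested genes. The stretches below come from genes on which the results turn, with the match in capitals and the position of its first base given relative to the start. Most of those shown carry CACGTG, but POLR1B, NOP56, PPAN and NIP7, also named in the results below, have windows without it. PES1 is shown beside the others because it carries the same letters and had the smallest change after 6 h of imatinib. A match is a description of the letters, and binding was not measured in these files.
BYSL, chr6:41921515-41921544, plus strand, base 29 after the start: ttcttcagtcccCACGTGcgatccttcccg
WDR43, chr2:28894658-28894687, plus strand, base 4 after the start: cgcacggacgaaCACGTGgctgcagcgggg
RRP9, chr3:51941892-51941921, minus strand, base 5 before the start: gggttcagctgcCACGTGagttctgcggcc
NOP2, chr12:6568242-6568271, minus strand, base 36 after the start: gctaggtccggattgCACGTGgagggccgc
MRTO4, chr1:19251807-19251836, plus strand, base 15 after the start: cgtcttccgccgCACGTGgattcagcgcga
PES1, chr22:30591880-30591909, minus strand, base 14 after the start: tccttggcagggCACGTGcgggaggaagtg
DDX21, chr10:68956604-68956633, plus strand, base 31 before the start: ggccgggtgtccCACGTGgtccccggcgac
LYAR, chr4:4290068-4290097, minus strand, base 64 before the start: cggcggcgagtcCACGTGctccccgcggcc
NME1, chr17:51153579-51153608, plus strand, base 35 after the start: caagtgctgcgaacCACGTGggtcccgggc
NOP16, with CCGGAAG and no CACGTG, chr5:176388597-176388626, minus strand, base 16 before the start: tgtgcacgccttCCGGAAGgagtttgttac

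The values are on the scale of ERCC spike-in RNA, which was added in relation to cell number, and their ERCC sums lay between 6505 and 6948 in all libraries. On that scale total FPKM was lower than in DMSO in every treated group, by 1.72-fold to 5.80-fold, so a gene is described both by its own change and against the median of all tested genes. In bulk RNA scaled to cell number, fewer cells that express a gene and less of its RNA in each cell cannot be told apart. Among the libraries, DMSO replicate 1 was low (its median log2 deviation from the DMSO mean over all tested genes was -0.27), and DMSO replicate 3 was high at 0.26. The combination replicate 2 had a total of 499857 FPKM against 286566 and 355558 in the other two. KIT was at 529, 626 and 777 FPKM in DMSO and ANO1, another marker of this tumor type, at 285, 327 and 425. Both were lower in the treated groups, KIT at 29.4%, 16.3%, 22.5%, 6.69% and 2.53% of its DMSO mean and ANO1 at 41.5%, 34.3%, 25.8%, 11.2% and 5.49% (imatinib and JQ1 at 6 h, imatinib, JQ1 and both at 24 h). ETV1, another lineage marker, was at 70.7%, 27.8%, 64.9%, 27.4% and 16.9%. Of 5 lineage markers, 3, 5, 4, 5 and 5 were called lower in that order. Of all tested genes 20%, 49.8%, 72.1%, 75.3% and 86% were. After ratio rescaling 0, 1, 0, 2 and 3 markers were called lower, against 2.08%, 2.57%, 8.72%, 6.47% and 10.1% of all tested genes. After 24 h of imatinib 1 was called higher after ratio rescaling and 2 after total rescaling, against 8.8% and 20% of all tested genes. The part of these markers in the results below was not tested. Of 11 markers of other cell types, 7 had a mean below 1 FPKM over all libraries. Those of leukocytes and endothelium were near the floor of the table (PTPRC at 0.105 to 0.109 FPKM and PECAM1 at 0.132 to 0.171 in DMSO). The summed level of the 11 was 420.1 to 667 FPKM in DMSO and 17.1 to 30.2 with the combination, nearly all of it the keratin gene KRT18, and its part in the results below was not tested. The read depth is unknown, and no label states that replicate libraries came from separate cultures. The p-values therefore rest on a library-to-library spread that may be technical.

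Changes below are differences of log2(FPKM + 1) with the standard error (SE) of a limma fit of all 18 libraries, and the added 1 makes changes of weakly expressed genes smaller. The words rose and fell are kept for genes with a Benjamini-Hochberg adjusted p below 0.05 over all tested genes and a log2 change of 1 or more in size. Members had SEs between 0.157 and 0.210. As checks on the scale, each library was also rescaled, either by its median ratio to a reference of per-gene geometric means (ratio rescaling) or to an equal total FPKM (total rescaling), the latter also with the rows named MIR1244 left out of the total. The 5 comparisons with DMSO share the DMSO libraries.

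After 6 h of imatinib, 35 of the 40 genes fell and 0 rose, where 20% of all tested genes fell and 0.384% rose. The median change was -1.48, against -0.69 for all tested genes, and 38 of the 40 lay below that median. As a level, the median gene kept 35.3% of its DMSO mean, from 10.3% for RRS1 to 71.5% for PES1. All 40 had 3 imatinib libraries below the 3 DMSO libraries, as did 78.8% of all tested genes. After ratio rescaling 13 of the 40 were called lower and 0 higher, against 2.08% and 1.22% of all tested genes, and 37 had a negative value. The 13 were POLR1B, NOP56, RRP9, WDR43, BYSL, RRS1, NOP16, NOP2, PPAN, MRTO4, NIP7, DDX21 and LYAR, and the same 13 were also called after total rescaling.

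The largest fall at this time was that of RRS1, a factor that brings a ribonucleoprotein of the large subunit into its precursor. RRS1 was at 39.9, 50.2 and 61.95 FPKM in the DMSO libraries and at 5.40, 3.79 and 6.53 after 6 h of imatinib. The imatinib libraries all lay far below the lowest DMSO library, and the change was -3.05 ± 0.18 (limma adjusted p = 5.25e-12). DDX21, an RNA helicase of the nucleolus, went from 149.7, 177 and 219 FPKM to 27.8, 26.3 and 32.1, a change of -2.61 ± 0.19 (limma adjusted p = 1.82e-10). BYSL, which joins early precursors of the small subunit, went from 50.2, 62.7 and 77.1 FPKM to 8.85, 10.1 and 11.6, a change of -2.51 ± 0.17 (limma adjusted p = 6.98e-11). For these 3 genes the lowest DMSO library was above every imatinib library several times over.

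By role, all 6 RNA polymerase I genes fell at this time. POLR1B, the second largest subunit, had the largest change of the 6 (-2.05 ± 0.16) and UBTF, which binds the ribosomal DNA promoter, the smallest (-1.05 ± 0.19). The UBTF call was lost without DMSO replicate 3 (-0.90) or imatinib replicate 2 (-0.99). Of the box C/D snoRNP genes, the scaffold proteins NOP56 (-1.90 ± 0.20) and NOP58 fell, while the methyltransferase FBL was at -0.80 ± 0.20, short of the fold required. Of the box H/ACA genes, the pseudouridine synthase DKC1 (-1.60 ± 0.20), GAR1 and the chaperone NOLC1 fell. NOP10 was at -0.94 ± 0.19, and NHP2 was at -0.58 ± 0.19 (0.20 and 0.19 after ratio and total rescaling). All 9 small subunit genes fell, from BYSL to the RNA acetyltransferase NAT10 (-1.22 ± 0.19), with the endonuclease NOB1 at -1.55 ± 0.20.

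Of the 12 large subunit genes 11 fell, and the exception belonged to a known complex. PES1, BOP1 and WDR12 form the PeBoW complex, which acts in large subunit maturation. BOP1 (-1.28 ± 0.20) and WDR12 fell. PES1 was at 115, 138 and 169.7 FPKM in DMSO and at 98.98, 95.7 and 107 after 6 h of imatinib, a change of -0.46 ± 0.20 with a limma adjusted p of 0.0366, and this value was positive after ratio rescaling (0.30) and total rescaling (0.30). Its libraries did not overlap between groups, but the highest imatinib library was close to the lowest DMSO library. Among the other nucleolar genes, DDX21, LYAR, the nucleolin gene NCL and the nucleoside diphosphate kinase gene NME1 fell. NPM1, the abundant chaperone nucleophosmin, was at 2848, 3683 and 4229.9 FPKM in DMSO and 2179, 2060.4 and 2204 with imatinib, a change of -0.72 ± 0.19 (0.06 and 0.05 after ratio and total rescaling).

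**Figure D1:**
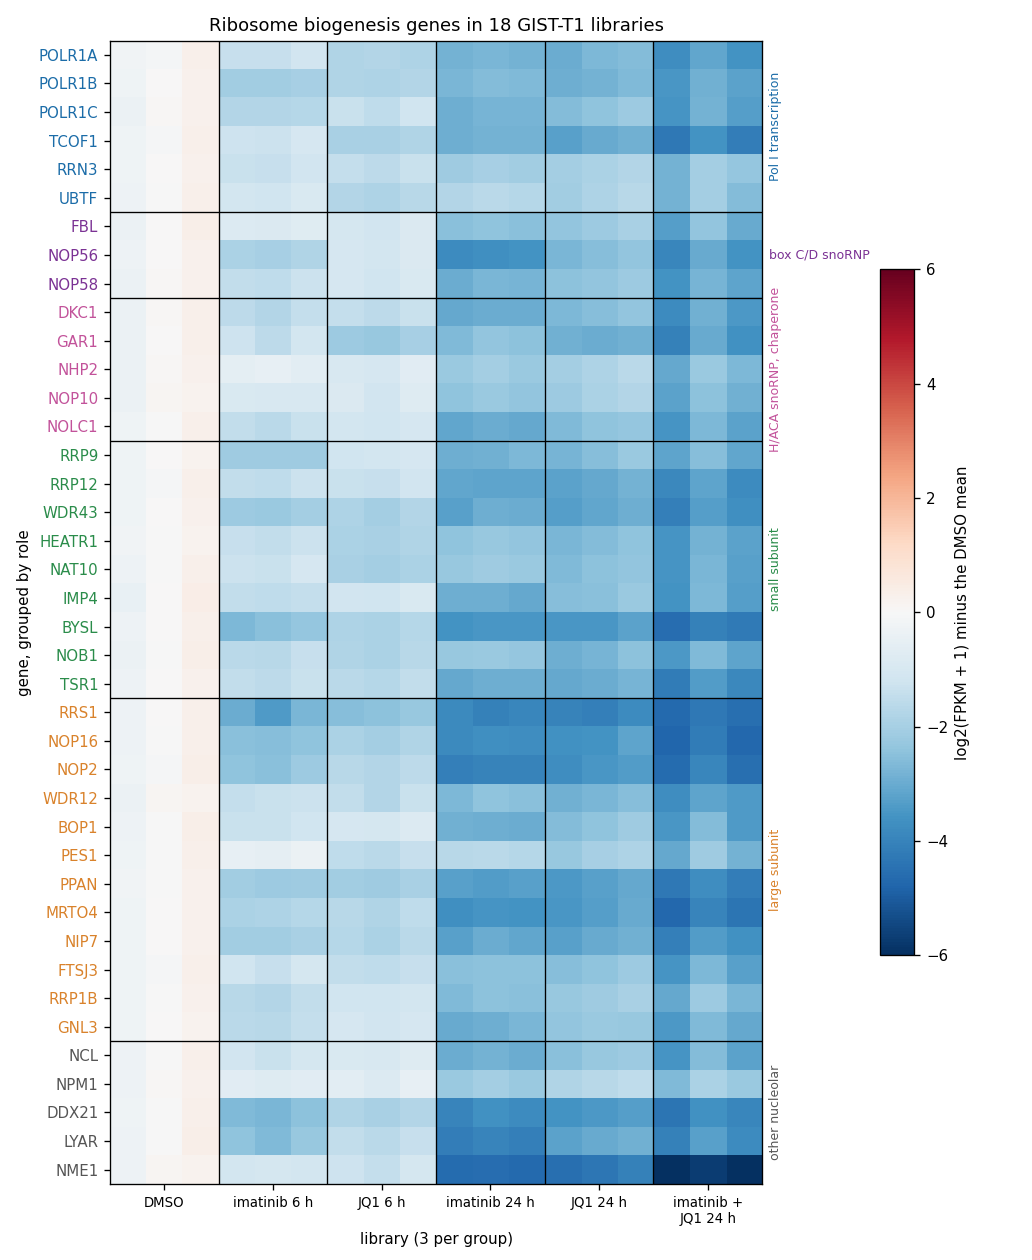
Each row is one of the 40 genes, grouped by role, and each column is one of the 18 libraries, in groups of 3. The color is log2(FPKM + 1) minus the mean of the 3 DMSO libraries, so blue means below DMSO on the deposited scale. Every treated library lies below the DMSO mean for every gene, RRS1 is the darkest row after 6 h of imatinib (-3.05 on average), and NME1 reaches -6.09 with the combination.

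After 6 h of JQ1, 34 of the 40 genes fell and 0 rose, in a comparison where 49.8% of all tested genes fell and 0.642% rose. The median change was -1.50, close to that after imatinib, but all tested genes were lower as well, and the members stood 0.50 below the all-gene median (34 of 40 lay lower). All 40 again had 3 treated libraries below the 3 DMSO libraries, as did 91.4% of all tested genes. As a level the median gene kept 34.2% of its DMSO mean. After ratio rescaling the call remained for GAR1 and RRS1 only, 2 of 40 against 2.57% of all tested genes, and 11 of the 40 had a positive value: FBL, NOP56, NOP58, NHP2, NOP10, NOLC1, IMP4, BOP1, GNL3, NCL and NPM1, between 0.04 and 0.51. After total rescaling 11 of 40 were called lower, against 6.39% of all tested genes, and NPM1 alone was positive. The count on the deposited scale also moved with the DMSO libraries, from 28 without DMSO replicate 3 to 39 without DMSO replicate 1.

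RRS1 again had the largest fall, to 7.79, 8.31 and 9.36 FPKM (-2.43 ± 0.18, limma adjusted p = 1.01e-10). GAR1, a core protein of the pseudouridylation complex, followed. It was at 67.7, 87.8 and 108 FPKM in DMSO and at 18.3, 16.8 and 21.2 after 6 h of JQ1, a change of -2.15 ± 0.21 (limma adjusted p = 7.93e-09). PPAN, a large subunit factor, went from 38.1, 43.4 and 52.4 FPKM to 9.54, 9.35 and 10.9 (-2.05 ± 0.16). In all 3 genes the JQ1 libraries lay close together and far below DMSO.

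All 6 RNA polymerase I genes and all 9 small subunit genes fell with JQ1 as well, with medians of -1.77 and -1.80. Among them were POLR1B at -1.80 ± 0.16, UBTF at -1.75 ± 0.19, BYSL at -1.83 ± 0.17, NAT10 at -1.97 ± 0.19 and NOB1 at -1.80 ± 0.20. Of the snoRNP proteins, FBL fell, at -1.01 ± 0.20 (0.13 after ratio rescaling), but the call was lost without DMSO replicate 3 (-0.85) or JQ1 replicate 2 (-0.95), and NOP56 was just short of the fold at -0.998 ± 0.20 (0.14 after ratio rescaling). DKC1 fell (-1.43 ± 0.20), while NHP2 was at -0.88 ± 0.19 and NOP10 at -0.92 ± 0.19, both positive after ratio rescaling (0.27 and 0.22). Of the large subunit genes 11 of 12 fell, here including PES1 (-1.51 ± 0.20), and BOP1 was the exception at -0.98 ± 0.20 (0.16 after ratio rescaling). NPM1 had the smallest change, to 2304, 2012 and 2512 FPKM (-0.64 ± 0.19, and 0.51 and 0.18 after ratio and total rescaling).

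**Figure D2:**
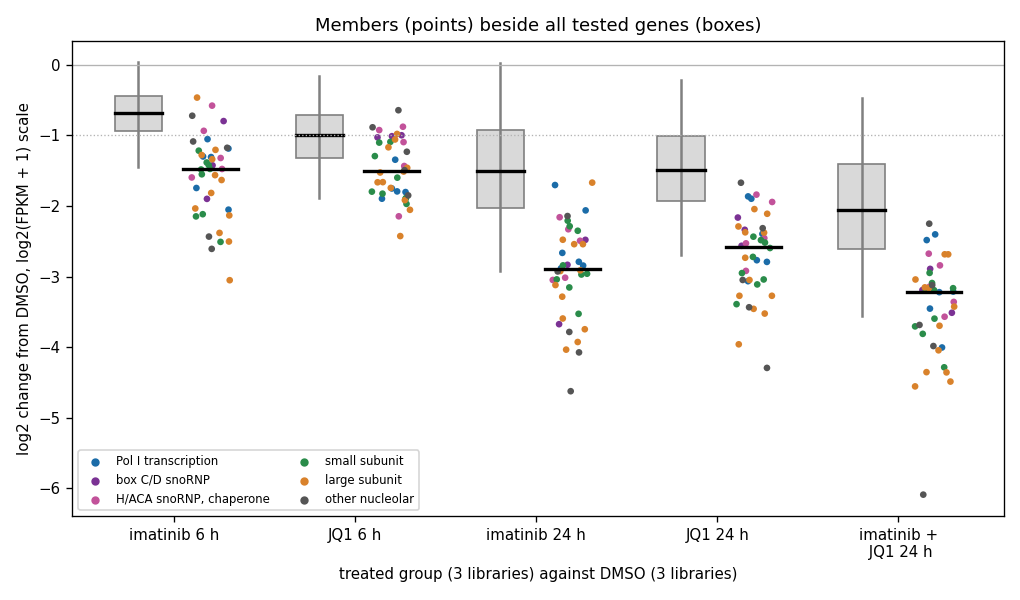
Log2 change from DMSO for each of the 40 genes (points, colored by role, with their median as a black line) beside all 12771 tested genes (grey box from the 25th to the 75th percentile, whiskers from the 5th to the 95th, black line at the median) in the 5 treated groups. The dotted line marks a log2 change of -1. The member median lies below the all-gene median in each group, by 0.79 after 6 h of imatinib and by 0.50 after 6 h of JQ1.

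At 24 h all 40 genes fell with imatinib, with JQ1 and with the combination, and 0 rose. The fall was common in the whole transcriptome too, with 72.1%, 75.3% and 86% of all tested genes called lower in the same order, while 0.642%, 0.399% and 0.235% rose. The treated libraries lay below the DMSO libraries for all 40 genes and for 90.8%, 92.5% and 94.4% of all tested genes. The median member change was -2.90 with imatinib, -2.58 with JQ1 and -3.22 with the combination, which is 1.39, 1.09 and 1.17 below the all-gene medians of -1.50, -1.49 and -2.05. All 40 lay below the all-gene median in each of the 3 comparisons. After ratio rescaling 26, 20 and 19 of the 40 were called lower, against 8.72%, 6.47% and 10.1% of all tested genes, and after total rescaling 12, 18 and 18, against 4.01%, 5.67% and 8.93%. The 10 genes called lower in all 3 comparisons under every rescaling were RRP12, BYSL, RRS1, NOP16, NOP2, PPAN, MRTO4, DDX21, LYAR and NME1. The share of all tested genes that met all of these conditions was not counted. It cannot exceed 4.01%, the smallest of the single shares. As levels, the median gene kept 12.3% of its DMSO mean with imatinib, 14.6% with JQ1 and 8.99% with both.

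NME1, a gene listed here as a MYC target, had the largest fall in each 24 h group. Its level was 1040.3, 1397 and 1532 FPKM in DMSO and still 602, 629 and 612 and 559.8, 489.7 and 625 after 6 h of imatinib and of JQ1. At 24 h it was 51.8, 53.7 and 50.4 FPKM with imatinib, 56.2, 64.3 and 77.97 with JQ1 and 13.4, 24.6 and 18.2 with both. No library of the 24 h groups came near a 6 h library, and the combination libraries lay below all single-drug libraries. The changes from DMSO were -4.63 ± 0.20, -4.30 ± 0.20 and -6.09 ± 0.20 (limma adjusted p = 6.13e-15, 1.63e-14 and 2.71e-17). NME1 lies beside the similar gene NME2, and the sources used here do not give how reads of the pair were divided. NME2, looked at after the values were seen, was at 1801, 2442 and 2753 FPKM in DMSO and 367, 367 and 363 after 24 h of imatinib, so both neighbors were lower.

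Several of the other leading genes act in large subunit assembly. RRS1 was at 2.65, 2.05 and 2.36 FPKM after 24 h of imatinib, 2.21, 1.94 and 2.71 with JQ1 and 1.03, 1.60 and 1.21 with both, and the single-drug groups overlapped. Its changes were -3.93 ± 0.18, -3.96 ± 0.18 and -4.49 ± 0.18. NOP2, an RNA methyltransferase, was at 104, 117 and 157 FPKM in DMSO, 6.30, 6.69 and 6.90 with imatinib and 8.52, 10.1 and 11.2 with JQ1 (-4.04 ± 0.19 and -3.53 ± 0.19), and the imatinib libraries all lay below the JQ1 libraries. NOP16 went from 122, 148 and 186 FPKM to 4.54, 7.35 and 4.71 with the combination (-4.56 ± 0.18). LYAR, a nucleolar zinc finger protein, went from 67.2, 80.9 and 105 FPKM to 3.70, 4.33 and 3.95 after 24 h of imatinib (-4.08 ± 0.19).

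The genes with the smallest falls at 24 h were all called on the deposited scale but not after ratio or total rescaling. With imatinib they were PES1 at -1.67 ± 0.20 (0.05 and 0.49 after ratio and total rescaling) and UBTF at -1.70 ± 0.19 (0.00 and 0.44). With JQ1 they were NPM1 at -1.67 ± 0.19 (0.04 and 0.14) and NHP2 at -1.84 ± 0.19 (-0.14 and -0.04). With the combination they were NPM1 at -2.25 ± 0.19 (0.18 and 0.31) and RRN3, the initiation factor that recruits RNA polymerase I, at -2.40 ± 0.18 (-0.07 and 0.05). RRN3 has near-identical pseudogenes in the table, so its own level is uncertain. NPM1 remained the most abundant member, at 768, 873 and 766 FPKM with imatinib, 1005, 1107 and 1234 with JQ1 and 555, 964 and 766 with both.

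By role, the medians at 24 h of imatinib were -2.73 for RNA polymerase I genes, -2.83 for box C/D, -2.49 for box H/ACA, -2.96 for the small subunit, -3.02 for the large subunit and -3.79 for the other nucleolar genes. With JQ1 they were -2.58, -2.34, -2.46, -2.72, -2.89 and -3.05 in the same order. With the combination they were -3.22, -3.19, -3.14, -3.19, -3.56 and -3.69. The groups hold 3 to 12 genes each and were not tested against one another. The treacle gene TCOF1, a partner of RNA polymerase I, went from 63.2, 73.8 and 95.2 FPKM in DMSO to 2.93, 5.53 and 3.34 with the combination.

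**Figure D3:**
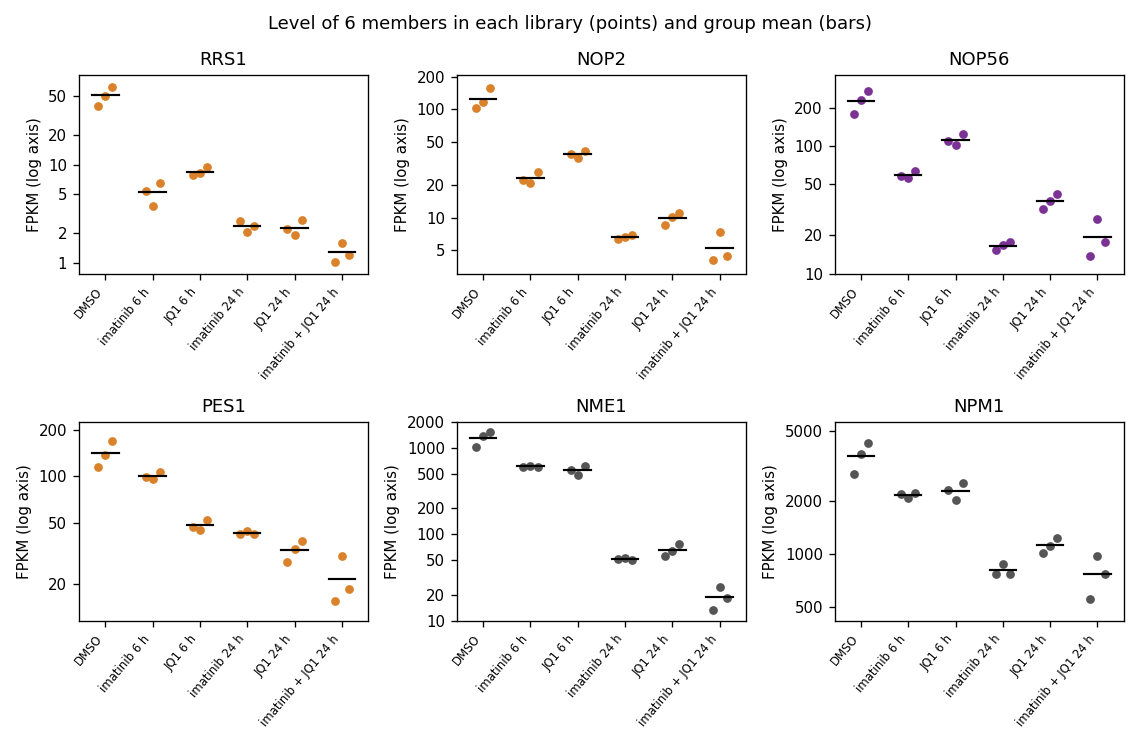
FPKM (log axes that differ between panels) of 6 genes in the 3 libraries of each group (points) with the group mean (bar). NME1 is at 602 to 629 FPKM after 6 h of imatinib and at 50.4 to 53.7 after 24 h, while RRS1 is already at 3.79 to 6.53 after 6 h, and PES1 is at 95.7 to 107 after 6 h of imatinib against 45.0 to 52.2 after 6 h of JQ1.

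The summed level of the 40 genes was also lower in each treated group. The sum was 11386 ± 2255 FPKM in DMSO (mean ± SD, n = 3), 5340 ± 220.3 with imatinib and 5595 ± 552 with JQ1 at 6 h, and 1767 ± 105, 2348 ± 274 and 1465 ± 428 at 24 h with imatinib, with JQ1 and with the combination. NPM1, NCL and NME1 give most of this sum. As a share of total FPKM without the rows named MIR1244, which hold a large and variable part of each total, the sum was 0.838% in DMSO, 0.665% and 0.774% at 6 h, and 0.463%, 0.526% and 0.518% at 24 h. The share was thus smaller in each treated group than in DMSO, with SDs of at most 0.015 percentage points. The combination was the lowest group for 38 of the 40 genes, NOP56 and LYAR were lowest after 24 h of imatinib, and DMSO was highest for all 40. The combination also had the lowest total FPKM (5.80-fold below DMSO) and the lowest all-gene median (-2.05). The share of all tested genes with the same order was not counted, so this order is not particular to the 40.

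Genes of the pathway outside the list of 40 were counted to see whether the list stands for the pathway. Of 108 other RNA polymerase I, processome, large subunit and exosome genes, 83 fell after 6 h of imatinib, 96 after 6 h of JQ1, and at 24 h 106 with imatinib, 105 with JQ1 and 107 with the combination, and 0 rose in any of these. These are 76.9%, 88.9%, 98.1%, 97.2% and 99.1% of the list, where 20%, 49.8%, 72.1%, 75.3% and 86% of all tested genes fell. After ratio rescaling 13, 4, 38, 27 and 31 of the 108 were called lower, or 12%, 3.7%, 35.2%, 25% and 28.7%. Of all tested genes 2.08%, 2.57%, 8.72%, 6.47% and 10.1% were. After total rescaling 14, 16, 10, 22 and 26 were called lower, against 2.16%, 6.39%, 4.01%, 5.67% and 8.93% of all tested genes. At 24 h 1, 1 and 3 were called higher after ratio rescaling, against 8.8%, 5.25% and 9.17% of all tested genes. After total rescaling these were 2, 1 and 3, against 20%, 7.09% and 12%. The medians of the 108 on the deposited scale were -1.30, -1.45, -2.47, -2.30 and -3.01. The largest falls were those of URB2 (-2.45 ± 0.15) and WDR3 (-2.29 ± 0.18) after 6 h of imatinib, and of UTP18 (-2.51 ± 0.18) and EMG1 (-2.26 ± 0.18) after 6 h of JQ1. At 24 h they were those of LTV1, a small subunit export factor (-3.74 ± 0.17 with imatinib, -3.70 ± 0.17 with JQ1), and BRIX1, a large subunit factor (-3.69 ± 0.19 and -3.63 ± 0.19). With the combination BRIX1 was at -4.69 ± 0.19 and LTV1 at -4.63 ± 0.17. By part of the pathway, the 10 exosome genes, which trim precursor RNA, changed least after 6 h of imatinib, with 4 called lower and a median of -0.77, and 0 called after ratio or total rescaling.

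The genes for the ribosomal proteins themselves gave other counts. Of 77 cytosolic ribosomal protein genes, 0 fell and 0 rose after 6 h of either drug. Of all tested genes 20% and 49.8% fell and 0.384% and 0.642% rose with imatinib and JQ1. The medians of the 77 were -0.49 and -0.73, above the all-gene medians by 0.19 and 0.27. At 24 h 73, 56 and 76 of the 77 fell with imatinib, JQ1 and both, or 94.8%, 72.7% and 98.7% of the list against 72.1%, 75.3% and 86% of all tested genes. Their medians of -1.33, -1.15 and -1.63 again lay above the all-gene medians, by 0.17, 0.34 and 0.43. After ratio rescaling the medians were positive, at 0.41, 0.56 and 0.81. Of the 77, 1, 0 and 0 were called lower, against 8.72%, 6.47% and 10.1% of all tested genes. Called higher were 1, 3 and 20, against 8.8%, 5.25% and 9.17% of all tested genes. After total rescaling 0 were called lower, against 4.01%, 5.67% and 8.93% of all tested genes. Called higher were then 20, 4 and 29, against 20%, 7.09% and 12% of all tested genes. The median of the assembly genes thus lay below the all-gene median in each comparison and that of the ribosomal protein genes above it, a difference between lists that was not tested. Many ribosomal protein genes have processed pseudogenes, and the sources used here do not give how such reads were assigned.

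MYCN was more abundant than MYC in these cells. It was at 107, 123 and 168 FPKM in DMSO, 6.57, 5.41 and 6.89 after 6 h of imatinib and 11.02, 11.5 and 12.5 after 6 h of JQ1. At 24 h it was 1.56, 1.90 and 1.83 FPKM with imatinib, 3.35, 3.37 and 4.27 with JQ1 and 0.480, 0.985 and 0.661 with both. No treated library came near a DMSO library, and at both times the imatinib libraries lay below the JQ1 libraries. The changes from DMSO ran from -3.37 ± 0.16 after 6 h of JQ1 to -6.28 ± 0.16 with the combination. MYC was at only 3.76, 4.33 and 5.21 FPKM in DMSO. Its change did not reach the fold with imatinib (-0.60 ± 0.13 at 6 h and -0.81 ± 0.13 at 24 h, the second positive after ratio rescaling at 0.46 and total rescaling at 0.84). With JQ1 MYC fell, with -1.10 ± 0.13 at 6 h, a call lost without DMSO replicate 3 (-0.99) or JQ1 replicate 2 (-0.95), and -1.72 ± 0.13 at 24 h. Neither MYC call held after rescaling, with -0.23 and -0.60 after ratio rescaling and -0.44 and -0.59 after total rescaling at 6 h and 24 h, while MYCN was called lower in all 5 comparisons with DMSO under each of the rescalings. Whether these genes bear on the 40 was not tested. Split by the promoter letters, the 15 genes with CACGTG had a median change of -1.56 after 6 h of imatinib, the 18 without it -1.43 and the 7 with no window -1.42. After 6 h of JQ1 these medians were -1.51, -1.56 and -1.17. At 24 h they were -2.97, -2.73 and -2.92 with imatinib, -2.92, -2.58 and -2.46 with JQ1, and -3.57, -3.22 and -3.19 with the combination. In the combination the genes with CACGTG ranged from -6.09 to -2.69 and those without from -4.56 to -2.25, and the difference was not tested.

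JQ1 and imatinib were then compared directly, in libraries that do not include DMSO. At 6 h, 1 of the 40 genes was lower with JQ1 (PES1) and 1 was higher (RRP9), against 9.36% and 1.95% of all tested genes. The median difference, JQ1 minus imatinib, was 0.16 for the 40 genes and -0.30 for all tested genes. RRP9, a protein of the U3 snoRNP, was at 3.91, 3.93 and 3.89 FPKM after 6 h of imatinib and 8.42, 8.94 and 9.44 after 6 h of JQ1, with no overlap (1.01 ± 0.17, limma adjusted p = 3.70e-05). The RRP9 call was lost without JQ1 replicate 3 (0.98) and held after ratio and total rescaling (1.28 and 1.02). PES1 was at 98.98, 95.7 and 107 FPKM and 47.3, 44.99 and 52.2 in the same 2 groups, all JQ1 libraries below all imatinib libraries (-1.05 ± 0.20, limma adjusted p = 0.000169). The PES1 difference was -0.68 after ratio rescaling and -0.997 after total rescaling, short of the fold. After ratio rescaling 6 genes were called higher with JQ1 and 0 lower, against 3.43% and 3.3% of all tested genes.

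Judged by adjusted p alone, with no fold required, 10 genes were higher with JQ1 at 6 h, namely NOP56, RRP9, BYSL, RRS1, NOP16, NOP2, RRP1B, GNL3, DDX21 and LYAR, where 7.11% of all tested genes were higher. By the same measure 7 were lower (POLR1A, TCOF1, UBTF, GAR1, HEATR1, NAT10 and PES1), where 40.3% of all tested genes were lower. The 7 lower genes hold 3 of the 6 RNA polymerase I genes and 0 of the 3 box C/D genes. These groups are too small to set against the 40.3% of all tested genes, and the roles were not tested. At 24 h NOP56 and LYAR were higher with JQ1 and 0 genes were lower, against 3.59% and 4.88% of all tested genes. By adjusted p alone 9 were higher with JQ1 (NOP56, NOP58, NOLC1, IMP4, NOP2, BOP1, GNL3, NCL and LYAR) and 0 were lower, against 18.1% and 19% of all tested genes. After total rescaling 0 of the 40 genes were called in this comparison, against 12.4% lower and 1.88% higher among all tested genes, and the member median of 0.30 became -0.07.

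NOP56 was at 15.3, 16.7 and 17.8 FPKM after 24 h of imatinib and 32.2, 36.9 and 42.4 after 24 h of JQ1, against 179, 229 and 271 in DMSO. Every JQ1 library lay above every imatinib library (1.11 ± 0.20, limma adjusted p = 0.000113). LYAR was at 3.70, 4.33 and 3.95 FPKM and 8.02, 9.28 and 10.3, again without overlap (1.03 ± 0.19, limma adjusted p = 0.000175). The LYAR call was lost without imatinib replicate 1 (0.98) or JQ1 replicate 3 (0.95). The drug differences at 6 h and at 24 h share no library, and over the 40 genes they had a Pearson r of 0.72 and a Spearman rho of 0.68, as against a Pearson r of 0.52 over all tested genes. Genes are not independent replicates, and these values describe the 12 libraries only.

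**Figure D4:**
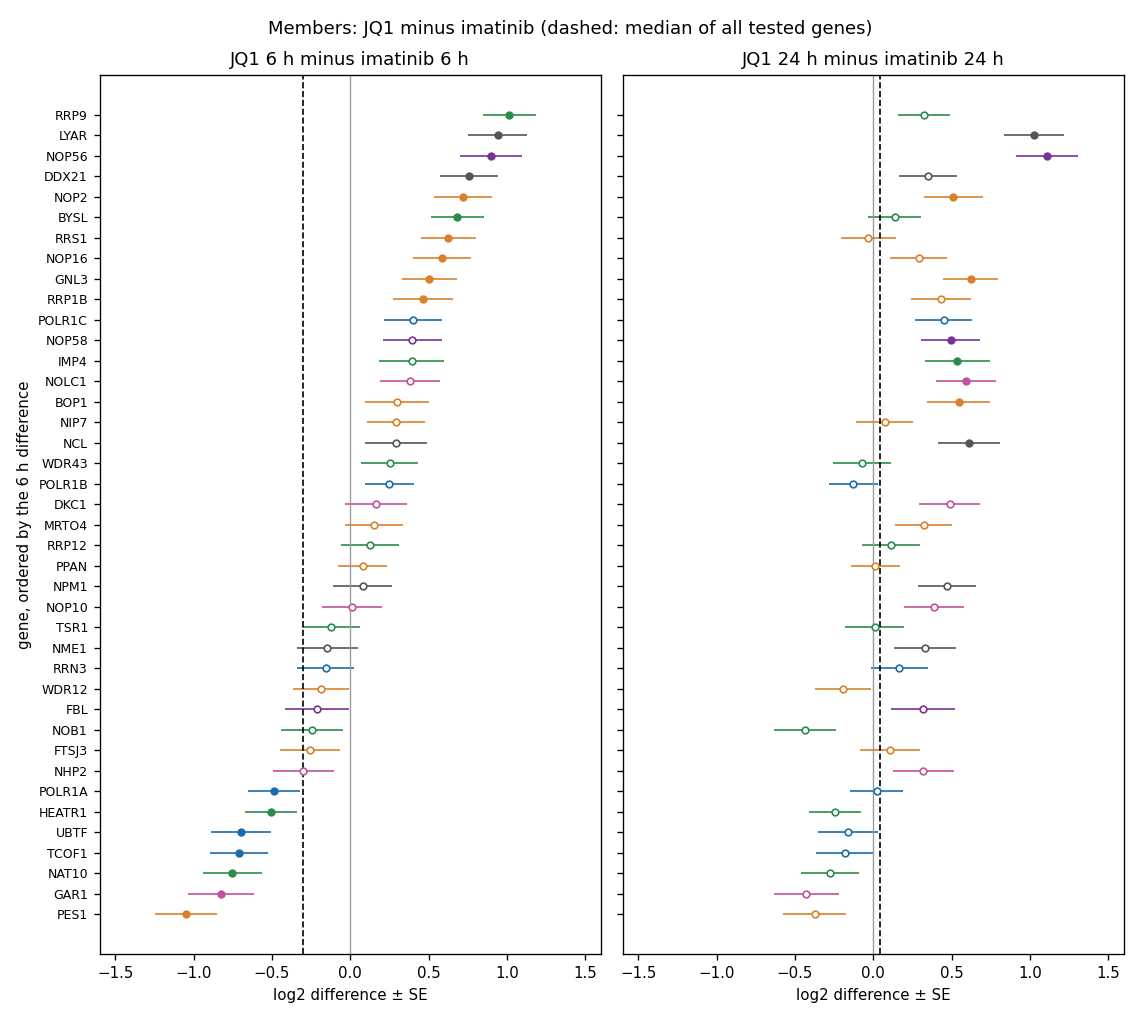
Difference between JQ1 and imatinib (JQ1 minus imatinib, log2 of FPKM + 1, with SE bars) at 6 h and at 24 h for the 40 genes, ordered by the 6 h value and colored by role as in the plot of log2 changes from DMSO. Filled points have an adjusted p below 0.05, and the dashed line is the median of all tested genes (-0.30 and 0.04). At 6 h 10 filled points lie to the right of 0 and 7 to the left, and at 24 h 9 lie to the right and 0 to the left.

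Between 6 h and 24 h of imatinib, 30 of the 40 genes fell further, against 33.4% of all tested genes, and 0 rose, against 0.501%. The median difference was -1.31, against -0.77 for all tested genes. Between 6 h and 24 h of JQ1, 28 fell further and 0 rose, against 14.2% and 0.509% of all tested genes, with medians of -1.22 and -0.45. After ratio rescaling these counts became 1 and 10, against 4.38% and 3.45% of all tested genes, and after total rescaling 1 and 1, against 1.82% and 1.28%. The member median of the imatinib time difference was 0.04 after total rescaling, with 21 of the 40 positive. NME1 led with both drugs (-3.54 ± 0.20 with imatinib and -3.06 ± 0.20 with JQ1). NME1 was called with both drugs after ratio rescaling (-2.58 and -2.51) and total rescaling (-2.13 and -2.08). With imatinib MRTO4, which resembles a protein of the ribosomal stalk (-1.78 ± 0.18), and NOP56 (-1.78 ± 0.20) followed, neither called after ratio rescaling (-0.85 and -0.84) or total rescaling (-0.41 and -0.40). With JQ1 NOP2 (-1.86 ± 0.19) and RRP12, a small subunit export factor (-1.75 ± 0.18), followed, called after ratio rescaling (-1.34 and -1.25) and not after total rescaling (-0.94 and -0.86).

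Other genes had no call between the times, which does not measure the share of a change reached by 6 h. With imatinib BYSL was at -2.51 at 6 h and -3.53 at 24 h and was called between them. NAT10 was at -1.22 and -2.21 and was not called. RRS1 was not called between 6 h and 24 h of imatinib, and neither were POLR1B, RRN3, UBTF, RRP9, WDR43, HEATR1, NAT10, NOB1 and RRP1B. Of these 10, 7 were also not called between the JQ1 times (POLR1B, RRN3, UBTF, HEATR1, NAT10, NOB1 and RRP1B), and 3 of the 7 belong to RNA polymerase I transcription. Most tested genes were not called either, since 33.4% were lower and 0.501% higher between the imatinib times. Between the JQ1 times these shares were 14.2% and 0.509%. The 2 time comparisons share no library. Over the 40 genes they had a Pearson r of 0.73 and a Spearman rho of 0.53, and the r was 0.52 without NME1 and 0.52 over all tested genes.

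The combination was compared with each drug at 24 h. Against imatinib alone 4 of the 40 genes were lower and 0 higher, against 14.5% and 0.423% of all tested genes, and the member median of -0.53 was near the all-gene median of -0.50 (0.09 and 0.03 after ratio rescaling). The 4 were NME1 (-1.47 ± 0.20), TCOF1 (-1.12 ± 0.18), GAR1 (-1.08 ± 0.21) and PES1. Against JQ1 alone 3 were lower and 0 higher, against 7.35% and 0.047% of all tested genes, with medians of -0.71 and -0.54. The 3 were NME1 (-1.80 ± 0.20), NOP16 (-1.10 ± 0.18) and MRTO4 (-1.09 ± 0.18). After ratio rescaling these values were -0.81, -0.57, -0.48 and -0.35 against imatinib and -1.11, -0.48 and -0.43 against JQ1. Only NME1 was still called, against JQ1 under each of the rescalings and against imatinib after the total rescalings, while the calls of the other genes ended under all of them. The counts also depended on single libraries. Without combination replicate 2, the library with the high total, they were 11 and 16, and without combination replicate 1 the first was 1. Without JQ1 replicate 3 the second was 1. By adjusted p alone 23 genes were lower than with imatinib and 39 lower than with JQ1, where 61.8% and 73.4% of all tested genes were lower.

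TCOF1 shows how the combination libraries spread. It was at 9.02, 9.74 and 9.66 FPKM with imatinib and 2.93, 5.53 and 3.34 with both drugs, so all 3 combination libraries were lower but the second was closer. GAR1 was at 12.8, 15.8 and 15.1 FPKM with imatinib and 4.26, 9.57 and 6.11 with both. Without combination replicate 1 the calls of TCOF1 (-0.98) and GAR1 (-0.84) against imatinib were lost. Against JQ1, NOP16 and MRTO4 lost their calls without JQ1 replicate 3 (-0.94 and -0.97) or without combination replicate 1 (-0.99 and -0.91).

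The interaction was taken as the change with both drugs less the sum of the changes with each alone, all at 24 h. It was positive and called for all 40 genes, against 46.8% of all tested genes, while 0.932% were called negative. A positive value means that the combination was less far below DMSO than the sum of the log2 changes of the single drugs. Values of log2(FPKM + 1) cannot go below 0, so a sum larger in size than the DMSO value cannot be reached. This held for some genes, so their positive sign was fixed in advance. Among them were RRS1, LYAR, NOP2, BYSL and PPAN, with sums of -7.89, -7.12, -7.56, -6.92 and -6.56. The count of 40 rests in part on such genes. For DDX21 the sum of -7.22 would lie close to 0 FPKM. The part of this floor in the other values was not tested. The median was 2.13 for the 40 genes and 0.95 for all tested genes, and the values ran from 1.03 for PES1 to 3.44 for LYAR. LYAR (3.44 ± 0.27), RRS1 (3.40 ± 0.25) and DDX21 (3.24 ± 0.26) had the largest values. For DDX21, which was at 149.7, 177 and 219 FPKM in DMSO, the libraries were at 10.8, 13.7 and 12.05 with imatinib, 14.04, 15.9 and 17.4 with JQ1 and 7.55, 13.6 and 10.9 with both, so the combination overlapped imatinib alone. After ratio rescaling 23 of the 40 were called positive, against 4.88% of all tested genes, and all 40 were above 0. After total rescaling 14 were called positive, against 1.92%, and 4 of the 40 were below 0. The DMSO libraries enter this value and those of both drugs.

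**Figure D5:**
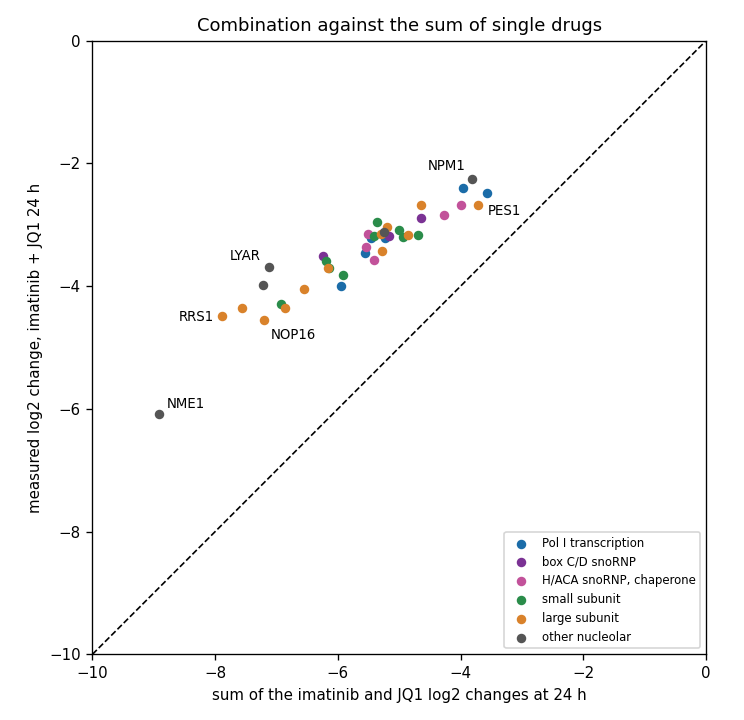
For each of the 40 genes (points, colored by role), the measured log2 change of the combination from DMSO at 24 h against the sum of the imatinib and JQ1 changes. The dashed line marks equality. All 40 points lie above the line on the deposited scale, with NME1 at -6.09 measured for a sum of -8.92 and PES1 at -2.69 for a sum of -3.71.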

How the data were processed

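The deposited values were FPKM of poly(A) RNA libraries. Per the submitters' processing notes, the authors used STAR, Cufflinks and hg19 (versions are not given in the sources used here), and ERCC RNA was added after RNA was normalized to cell number, per the labels' protocols. The deposited FPKM have nearly equal ERCC sums and were taken to be on that spike-in scale. The table holds 23621 genes and 92 ERCC rows. Read depth is unknown.

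Genes with at least 1 FPKM in 3 or more libraries (12771) were fitted as log2(FPKM + 1) with limma 3.58.1 in R 4.3.3, with 6 group means, 12 residual degrees of freedom and an intensity trend. Tests were two-sided with Benjamini-Hochberg adjustment within each of 12 comparisons. A call needed an adjusted p below 0.05 and a log2 change of at least 1. The fit was tested on simulated data.

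The 40 genes, the lists of other pathway, ribosomal protein and marker genes, and the tests were chosen with earlier results of these data known. All 40 may be named with levels. Tested changes are given for the 3 called members of largest fall and rise per comparison, the 2 of smallest change against DMSO, the most abundant, most and least lowered (6 h of imatinib) of each role, MYC and MYCN, and 2 other pathway genes per DMSO comparison. Alternatives were the added value, the filter, 3 rescalings, a replicate block, compared groups alone, adjusted p alone and each library left out. One JQ1 24 h column carries a number that matches no label and was used as an unnumbered replicate of its group. Promoter windows came from RefSeq on GRCh38.p14, another build than that of the values.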

Additional observations from a re-analysis of the deposited data

Results flagged for a closer look

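At 24 h the effect of JQ1 in cells that also had imatinib differed from its effect in cells without imatinib, by the interaction term of the limma fit, for all 40 genes on the deposited scale. The genes named for this were LYAR with 3.44 ± 0.27, RRS1 with 3.40 ± 0.25 and DDX21 with 3.24 ± 0.26 (log2, SE). After ratio rescaling the values were 2.43, 2.25 and 2.21. All 3 also fell with each drug alone at 24 h, and 46.8% of all tested genes had a positive call in the same test. For LYAR and RRS1 the summed single-drug changes (-7.12 and -7.89) would lie below 0 FPKM. A positive value on the deposited scale was therefore fixed in advance for these 2 genes. For DDX21 the sum of -7.22, from a DMSO mean of 182 FPKM, would lie close to 0 FPKM, so its sign was nearly fixed as well.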

How the results depend on the processing

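Rescaling takes out a shift shared by most genes, and it lowered most counts of called genes. For imatinib at 24 h, ratio rescaling moved the all-gene median from -1.50 to 0.01. The share of all tested genes called lower there went from 72.1% to 8.72%. The cause of the shared shift was not tested. After ratio rescaling, total rescaling and total rescaling without MIR1244, the genes called lower numbered 13, 13 and 14 for imatinib at 6 h, 2, 11 and 8 for JQ1 at 6 h, 26, 12 and 26 for imatinib at 24 h, 20, 18 and 21 for JQ1 at 24 h, and 19, 18 and 24 for the combination. In the same order the genes lower than with imatinib numbered 0, 0 and 0 for JQ1 at 6 h and 0, 1 and 1 for the combination, and those lower in the combination than with JQ1 1, 1 and 1. Between the times 1, 1 and 1 fell with imatinib and 10, 1 and 4 with JQ1. The genes called higher numbered 6, 1 and 3 for JQ1 against imatinib at 6 h, 2, 0 and 0 at 24 h, 1, 0 and 0 for the combination against imatinib and 23, 14 and 21 for the interaction. Without MIR1244, 2.36%, 5.42%, 8.05%, 8.26% and 13.5% of all tested genes were lower in the 5 DMSO comparisons. Between the times 3.74% and 2.58% were lower, and for the interaction 3.97% were higher. For the combination 5.58%, 11.2% and 8.78% were lower than with imatinib after the 3 rescalings. Against JQ1 these were 0.814%, 0.846% and 0.9%. Shares for the left-out libraries, 0.1 added and the block are not given here. The distance of the member median from the all-gene median kept its sign under every rescaling except for the combination against imatinib, where it went from -0.034 to 0.061, 0.041 and 0.044, and was 0.050 with an added value of 0.1 in place of 1. In the order of the 5 DMSO comparisons, the distance was -0.71, -0.38, -1.22, -0.98 and -0.97 after ratio rescaling; -0.72, -0.43, -1.17, -0.996 and -0.96 after total rescaling. Without MIR1244 it was -0.72, -0.42, -1.22, -1.01 and -0.998. With an added value of 0.1 it was -0.74, -0.41, -1.29, -1.07 and -1.09, with a mean of at least 5 FPKM -0.73, -0.44, -1.17, -0.93 and -0.92, and with no filter, which adds weakly expressed genes to the median, -1.26, -1.09, -2.50, -2.06 and -2.47. For the combination against JQ1, imatinib time, JQ1 time and the interaction it was -0.10, -0.42, -0.71 and 1.11 after ratio rescaling, -0.098, -0.38, -0.66 and 1.06 after total rescaling, and -0.11, -0.41, -0.69 and 1.10 without MIR1244. With a mean of at least 5 FPKM these were -0.077, -0.38, -0.65 and 1.04, and with no filter -0.55, -1.18, -1.18 and 1.95. The imatinib time value was -0.47 with 0.1 added. JQ1 minus imatinib was 0.51, 0.51 and 0.17 at 6 h with 0.1 added, ratio rescaling and no filter, and 0.19 at 24 h with a mean of at least 5 FPKM. With no filter the combination against imatinib was -0.42. With 0.1 added, 7 genes were lower in the combination than with imatinib and 6 than with JQ1. By adjusted p alone 7 genes were lower and 10 higher with JQ1 than with imatinib at 6 h, 9 were higher at 24 h, and 23 and 39 were lower in the combination than with imatinib and with JQ1.

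Rescaling turned the sign of some named genes. After ratio rescaling, 6 h of imatinib gave NHP2 0.20, PES1 0.30 and NPM1 0.056, and 6 h of JQ1 gave BOP1 0.16, FBL 0.13, NHP2 0.27, NOP10 0.22, NOP56 0.14 and NPM1 0.51. At 24 h imatinib gave MYC 0.46, PES1 0.049 and UBTF 0.0017, JQ1 gave NPM1 0.036 and the combination NPM1 0.18. After total rescaling, 6 h of imatinib gave NHP2 0.19, PES1 0.30 and NPM1 0.049, and 6 h of JQ1 NPM1 0.18. At 24 h imatinib gave MYC 0.84, NHP2 0.019, PES1 0.49, NPM1 0.048 and UBTF 0.44, JQ1 NPM1 0.14, and the combination NPM1 0.31, RRN3 0.049 and UBTF 0.0022. Without MIR1244 in the total, 6 h of imatinib gave NHP2 0.16, PES1 0.27 and NPM1 0.019, 6 h of JQ1 NHP2 0.016 and NPM1 0.25, 24 h of imatinib MYC 0.55, PES1 0.12 and UBTF 0.074, and the combination NPM1 0.035. Leaving out one library at a time gave 33 to 36 genes lower for imatinib and 28 to 39 for JQ1 at 6 h, 40 in each 24 h comparison with DMSO and 38 to 40 for the interaction. It gave 0 to 2 genes higher with JQ1 than imatinib at 6 h and 1 to 2 at 24 h, 1 to 11 lower in the combination than with imatinib, and 1 to 16 lower than with JQ1, with the highest of these last 2 counts reached without combination replicate 2. The distance from the all-gene median was 0.19 to 0.29 for JQ1 against imatinib at 24 h and 1.11 to 1.22 for the interaction. The replicate numbers did not pair the libraries: 40 pairs of libraries with the same number in different groups had a median correlation of deviations of -0.03, with 4 over 0.1, and 80 pairs with different numbers had 0.01. A fit with the replicate number as a block, which left out the JQ1 24 h library that carries no number matching a label, moved the genes lower between the JQ1 times from 28 to 27 and the interaction from 40 to 39, and no other count of calls. Of 124 named results, the block, no filter and fitting the compared groups alone left all 124 on the same side of the threshold. Read depth is unknown, so counting error could not be given.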
